A study of Americamysis bahia with 35 samples.

Results

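Whole juvenile mysids kept for 96 h in leachate of unweathered tire-wear particles at 1.08 g/L were compared with mysids kept in seawater without leachate (0 g/L), 5 libraries against 5 of the 35 in the series. The 10 libraries were taken by their labels, and all 34903 transcripts measured in them were used, both singly and summed to 22900 Trinity genes. The mysid is Americamysis bahia, a small estuarine shrimp-like crustacean widely used to test the toxicity of water. Both groups carried an age label of 5 days, stood in filtered seawater of 25 ppt in an environmental chamber, and were fed brine shrimp nauplii. The 25 other libraries, from lower concentrations of the unweathered leachate (0.27, 0.54 g/L) and from leachate of weathered particles (0.67, 1.34, 2.68 g/L), served here to estimate the spread between libraries. The labels do not say whether a library is 1 animal, a pool or a tank, so the spread behind each p-value is that of these libraries and may be partly technical.

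Tire-wear particles are fragments of tread rubber worn off on roads. Water that stands on them takes up rubber additives, among them zinc, benzothiazoles and antioxidants of the phenylenediamine type, and the mixture of these substances is called a leachate. Crustaceans are known to answer foreign chemicals with enzymes and transporters that modify and export them, and metals with metal-binding proteins, and a growing mysid replaces its cuticle at each moult. The Trinity IDs of these files are not paired with gene names, so none of those gene groups could be looked up, the whole-body label could not be set against tissue markers, and no role is given to any ID here. RNA came from whole bodies, so fewer cells of a type and less RNA per cell cannot be told apart.

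Trinity builds transcripts from the reads without a genome and groups those that overlap into a Trinity gene. The reads of similar transcripts of a Trinity gene are divided among them by estimation, so the sum over the gene is the steadier value. The levels below are CPM, the counts of a Trinity gene relative to the library's total, scaled between libraries by trimmed means (TMM). The 10 libraries held from 18081325 to 26636831 counts, with a mean of 23407647 (SD 3195795, n = 5) in the control and 23504321 (SD 2413770, n = 5) in the exposed group. Between 20059 and 21008 Trinity genes had at least 1 count in a library. The total, the scaling factor, the numbers of transcripts and of Trinity genes found, and the share of counts in the 100 most abundant Trinity genes were compared between the groups, and none of the 5 passed a test (two-sided exact permutation tests, adjusted p = 0.968 for each). Control replicate 4 stood apart from the other controls, with the lowest total, a scaling factor of 0.916 against 1.088 to 1.135, and 51.1% of its counts in those 100 Trinity genes against 44.2% to 46.4%. Its part in the results was measured by leaving it out.

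The exposed group differed from the control in more rises than falls. Of 17990 Trinity genes with enough counts to test, 419 (2.33%) were higher and 113 (0.628%) lower at 1.08 g/L, together 2.96% (edgeR's quasi-likelihood test, Benjamini-Hochberg adjusted p under 0.05, 5 libraries against 5). The rises had a median of 1.61-fold, with quartiles of 1.41-fold and 2.00-fold. The falls had a median of 1.59-fold, with quartiles of 1.42-fold and 1.97-fold. Over all tested Trinity genes the median log2 change was 0.0047. A Trinity gene counted as higher here had a median standard error of 0.15 on the log2 scale, and a lower one 0.16.

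The excess of rises depended in part on how libraries were scaled. Rises were 78.8% of the calls with TMM scaling, 59.7% with upper quartile scaling (307 higher, 207 lower) and 67.9% with total counts (266 higher, 126 lower). Upper quartile scaling moved the median log2 change of all Trinity genes to -0.057. Without exposed replicate 3 the count fell from 532 to 328, and without control replicate 3 to 345. With control replicate 4 left out, 580 Trinity genes were called, 440 of them higher.

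**Figure D1:**
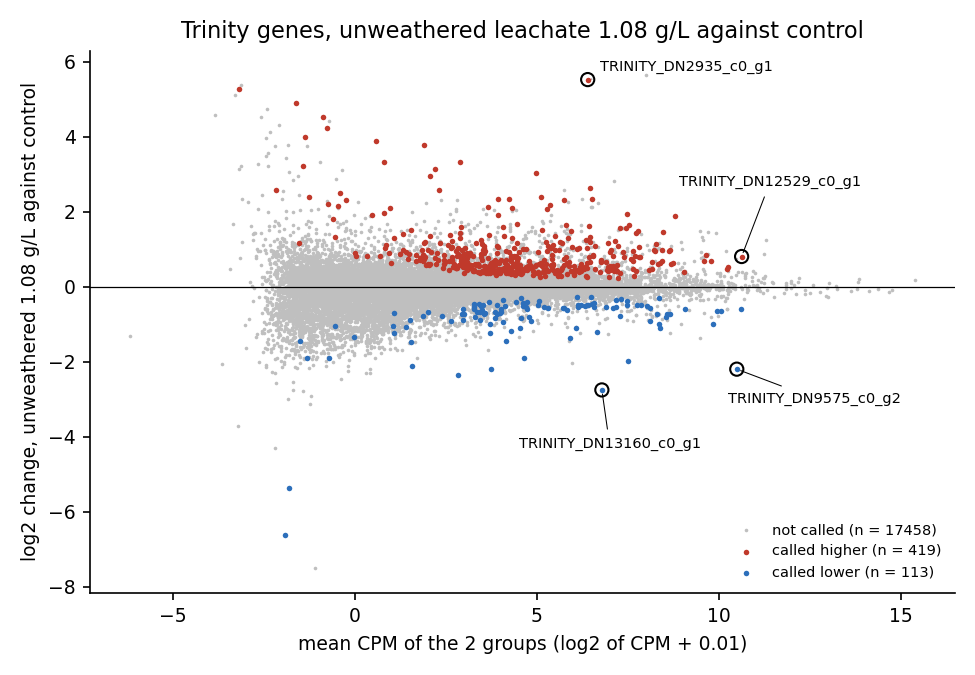
Each point is a Trinity gene, with the log2 of its mean CPM over both groups (plus 0.01) on the x axis and its log2 change at unweathered 1.08 g/L against the control on the y axis. The 419 called higher and 113 called lower are coloured, and the 4 named Trinity genes are circled. Calls with small changes lie to the right, where abundance is high.

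Most changes were modest. Of the rises, 153 were under 1.5-fold, 161 between 1.5-fold and 2-fold, 73 between 2-fold and 4-fold and 32 at 4-fold or more. The falls divided into 45, 41, 20 and 7 over the same classes. The 32 rises of 4-fold or more had a median mean level of 3.96 CPM, against 23.7 CPM for the 153 smallest rises, and 15 of the 32 were under 2 CPM. The 7 falls of 4-fold or more had a median of 7.17 CPM, against 68.9 CPM for the 45 smallest falls, and 2 of the 7 were under 2 CPM. Tested against a change of 1.5-fold in place of a change of 0 (edgeR's glmTreat), 33 Trinity genes were higher and 6 lower by more than that at an adjusted p under 0.05, which is 0.217% of those tested. Their changes ran from 1.97-fold to 46.2-fold, with a median of 3.96-fold.

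In most called Trinity genes the 2 groups of libraries did not overlap. In 333 of the 419 that rose every exposed library lay above every control library, as it did in 608 (3.38%) of all tested. In 78 of the 113 that fell every exposed library lay below every control, against 251 (1.4%) of all tested. These calls and this separation use the same values, so the separation describes the calls and is no further evidence for them.

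The 5 exposed libraries differed in how far the called Trinity genes had moved. Against the control mean, the median log2 difference of the 419 that rose was 0.51 in exposed replicate 1, 0.56 in replicate 2, 0.71 in replicate 3, 0.70 in replicate 4 and 0.65 in replicate 5. In the 5 control libraries the same median lay between -0.062 and 0.017. For the 113 that fell the medians were -0.54, -0.61, -0.73, -0.57 and -0.86 in exposed replicates 1 to 5, and between -0.14 and 0.077 in the controls. Replicate 1 was thus the exposed library nearest to the control in both directions, and without it the count of calls was 583. Since these libraries chose the calls, the differences are a description.

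**Figure D2:**
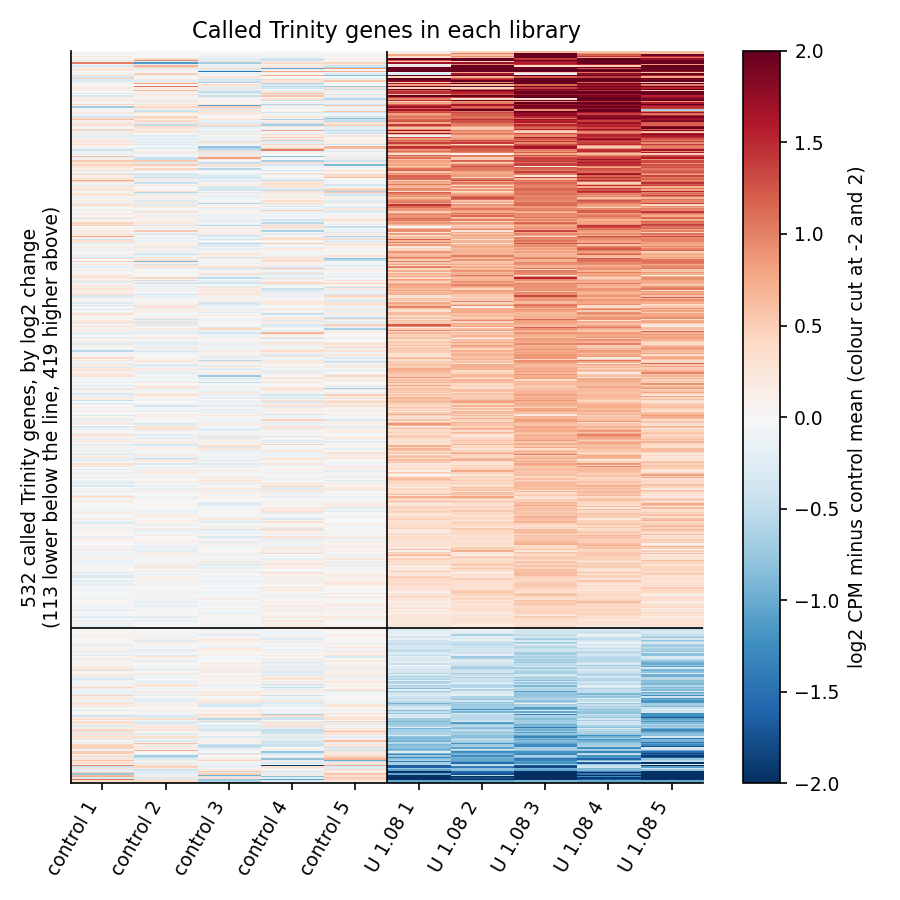
Rows are the 532 called Trinity genes ordered by log2 change, columns are the 5 control and 5 exposed (U 1.08) libraries, and colour is log2 CPM minus the control mean, cut at -2 and 2. The 419 that rose lie above the horizontal line and the 113 that fell below it, and every exposed library shows both blocks.

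In bulk the called RNAs were a small part of each library. The 419 that rose made up 2.20% of counts in the control (SD 0.223, n = 5) and 3.65% at 1.08 g/L (SD 0.233, n = 5). The 113 that fell went from 1.93% (SD 0.361, n = 5) to 1.05% (SD 0.148, n = 5). Of the summed CPM difference of the rises, the 10 largest gave 29.6% and the single largest 5.93%. For the falls it was 65.7% from the 10 largest and 23.8% from 1 Trinity gene, TRINITY_DN9575_c0_g2. The sets differ in size, and 10 is a larger part of 113 than of 419, so these shares are not directly comparable.

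Named Trinity genes are the largest log2 rise and the largest log2 fall among called ones at a mean log2 CPM of at least 1 whose groups did not overlap, and the largest rise and fall in CPM beyond these. No more than 2 rising and 2 falling IDs are given, because they carry no names.

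TRINITY_DN2935_c0_g1 had the largest log2 rise. The 5 control libraries held 4.60, 4.26, 4.84, 2.11 and 1.92 CPM, and the 5 exposed libraries 51.2, 102, 231, 183 and 259 CPM, in the order of replicates 1 to 5. The lowest exposed library was thus far above the highest control, while the exposed libraries themselves spread widely. Controls averaged 3.55 CPM (SD 1.42, n = 5) and exposed libraries 165 CPM (SD 87.1, n = 5), which is 46.2-fold (log2 change 5.53, SE 0.86, edgeR adjusted p = 0.000152). The control values rest on 35 to 139 counts per library. In TPM, the share of the library per unit of transcript length, its level went from 2.53 (SD 1.11, n = 5) to 111 (SD 59.2, n = 5), from rank 11976 to rank 1022 of the 22900 Trinity genes. All 3 of its transcripts rose. The most abundant, of 2430 bases, had log2 change 5.86 (SE 0.93), the next, of 2508 bases, 4.90 (SE 0.93), and the least abundant, of 1999 bases, 4.16 (SE 1.00), with edgeR adjusted p-values of 0.000458, 0.00303 and 0.0235.

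TRINITY_DN9575_c0_g2 had the largest fall in CPM. Control replicates 1 to 5 held 3639, 2502, 1708, 1256 and 2741 CPM, and exposed replicates 1 to 5 held 418, 458, 448, 933 and 330 CPM. The groups did not overlap, and the nearest libraries were exposed replicate 4 and control replicate 4. Controls averaged 2369 CPM (SD 928, n = 5) and exposed libraries 518 CPM (SD 237, n = 5), a fall of 4.58-fold (log2 change -2.19, SE 0.27, edgeR adjusted p = 4.9e-06). It has 1 transcript, of 948 bases. In TPM it went from 4866 (SD 2135, n = 5), where it ranked 21 among all Trinity genes, to 993 (SD 443, n = 5) and rank 179.

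TRINITY_DN13160_c0_g1 had the largest log2 fall among called Trinity genes within the limits of abundance and overlap given above. Scarcer called ones below that abundance fell further, with log2 changes of -5.37 and -6.63. TRINITY_DN13160_c0_g1 also has a single transcript, of 3178 bases, so its fall as a transcript and as a Trinity gene are nearly the same measurement. Control replicates 1 to 5 held 352, 211, 95.8, 78.4 and 225 CPM, and exposed replicates 1 to 5 held 14.4, 39.1, 24.5, 51.3 and 13.9 CPM. Both groups spread by several fold, and still the highest exposed library was below the lowest control. Controls averaged 192 CPM (SD 111, n = 5) and exposed libraries 28.7 CPM (SD 16.3, n = 5), a fall of 6.72-fold (log2 change -2.75, SE 0.40, edgeR adjusted p = 7.06e-05). A second tested Trinity gene, whose ID has the same DN number but another c number, was also called. It went in the other direction, with a log2 change of 1.13 at a mean of 5.90 CPM. Whether these Trinity genes share sequence or exchanged reads was not tested.

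The libraries fell in the same order in both falling Trinity genes. Among controls, replicate 1 was highest in both, followed by replicates 5, 2, 3 and 4. Among exposed libraries, replicate 4 was highest in both, followed by replicates 2, 3, 1 and 5.

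TRINITY_DN12529_c0_g1 had the largest rise in CPM. Control replicates 1 to 5 held 1354, 1514, 788, 955 and 1137 CPM, and exposed replicates 1 to 5 held 1474, 1721, 3213, 1546 and 2121 CPM. The groups overlapped, with exposed replicate 1 below control replicate 2, and exposed replicate 3 was the highest of all. Controls averaged 1149 CPM (SD 293, n = 5) and exposed libraries 2015 CPM (SD 715, n = 5), a rise of 1.75-fold (log2 change 0.81, SE 0.22, edgeR adjusted p = 0.0324). This call was not firm: without exposed replicate 3 the log2 change was 0.58 (edgeR adjusted p = 0.206), and it also missed the threshold without exposed replicate 5 or without control replicate 3, 4 or 5 (log2 changes 0.79, 0.70, 0.74 and 0.81, edgeR adjusted p = 0.0612, 0.122, 0.0779 and 0.0655). Its most abundant transcript, of 1981 bases, carried 91.8% of its TPM in the control and 92.6% at 1.08 g/L, and as a transcript had a log2 change of 0.81 (SE 0.22), which missed the threshold (edgeR adjusted p = 0.0548).

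The other groups place these levels on a scale of concentration. They were tested against the same control libraries, so the comparisons are not independent. For TRINITY_DN2935_c0_g1 the unweathered 0.27 g/L libraries averaged 7.95 CPM (SD 3.38, n = 5; log2 change 1.15, SE 0.74, edgeR adjusted p = 0.842). Those of 0.54 g/L averaged 34.9 CPM (SD 40.7, n = 5; log2 change 3.29, SE 0.78, edgeR adjusted p = 0.0752). Neither passed the test, though the change at 0.54 g/L was large. The 0.54 g/L libraries ran from 3.31 to 102 CPM, so that some lay at the level of the control and 1 among the 1.08 g/L libraries. In the weathered groups of 0.67 and 1.34 g/L it averaged 6.84 CPM (SD 4.70, n = 5) and 7.53 CPM (SD 8.00, n = 5), and neither passed the test (edgeR adjusted p = 0.628 and 0.658). In the weathered 2.68 g/L group it averaged 80.6 CPM (SD 59.3, n = 5), which passed (log2 change 4.49, SE 0.82, edgeR adjusted p = 0.00244).

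Both falling Trinity genes were also lower in the unweathered 0.54 g/L group. For TRINITY_DN9575_c0_g2 the 0.27 g/L libraries averaged 1610 CPM (SD 295, n = 5), which did not pass (log2 change -0.56, SE 0.26, edgeR adjusted p = 0.651), and the 0.54 g/L libraries 1043 CPM (SD 391, n = 5), which did (log2 change -1.18, SE 0.26, edgeR adjusted p = 0.0490). For TRINITY_DN13160_c0_g1 the 0.27 g/L libraries averaged 89.7 CPM (SD 25.6, n = 5), which did not pass (log2 change -1.10, SE 0.38, edgeR adjusted p = 0.416), and the 0.54 g/L libraries 38.6 CPM (SD 26.2, n = 5), which did (log2 change -2.32, SE 0.39, edgeR adjusted p = 0.00519). In weathered leachate of 2.68 g/L TRINITY_DN9575_c0_g2 averaged 702 CPM (SD 119, n = 5) and TRINITY_DN13160_c0_g1 25.1 CPM (SD 3.80, n = 5), and both passed (edgeR adjusted p = 0.000246 and 0.000103). In the weathered groups of 0.67 and 1.34 g/L neither of the pair passed (edgeR adjusted p = 0.537 and 0.411 for the first, 0.251 and 0.315 for the second). Their averages there were still below those of the control. The first averaged 1810 and 1564 CPM against 2369 CPM, and the second 102 and 91.8 CPM against 192 CPM. Both were picked by their difference from these same control libraries. For TRINITY_DN12529_c0_g1 the averages were 1249 CPM (SD 200.2, n = 5) in the 0.27 g/L libraries and 1674 CPM (SD 268, n = 5) in the 0.54 g/L libraries, and neither passed the test (edgeR adjusted p = 0.978 and 0.372). It averaged 1374, 1092 and 1884 CPM in the weathered groups of 0.67, 1.34 and 2.68 g/L, and none passed (edgeR adjusted p = 0.650, 0.954 and 0.147).

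**Figure D3:**
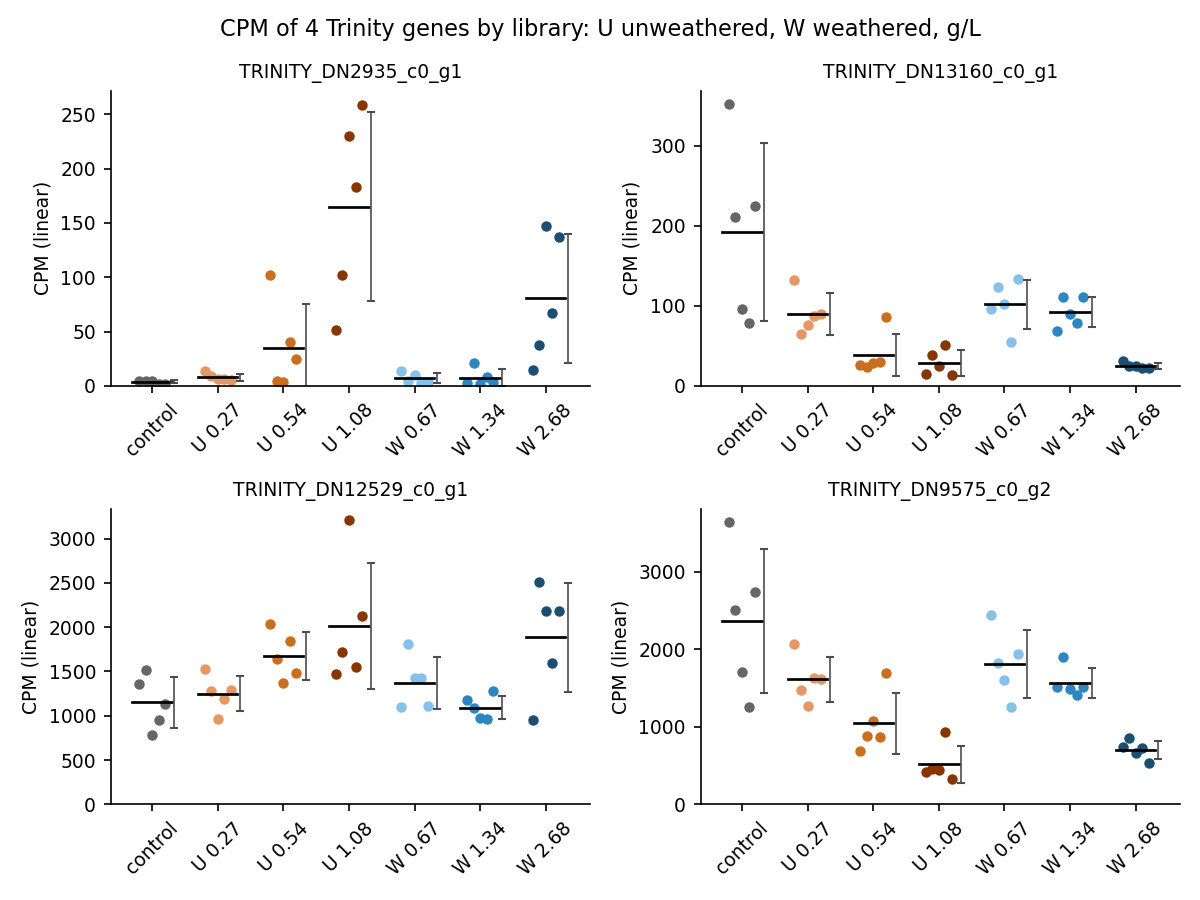
CPM of the 4 named Trinity genes in all 35 libraries, by group (U unweathered, W weathered, in g/L). Points are libraries, horizontal lines the means and bars the SD (n = 5), cut off at 0 on the linear axis. The exposed libraries at U 1.08 lie between 51.2 and 259 CPM for TRINITY_DN2935_c0_g1 and between 330 and 933 CPM for TRINITY_DN9575_c0_g2.

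What could be called depended strongly on abundance. With tested Trinity genes divided by mean CPM into 4 classes of equal size, 218 rose and 62 fell in the most abundant class, which had a median of 42.1 CPM, so that 6.23% of the class was called. In the least abundant class, with a median of 0.601 CPM, 19 rose and 7 fell, 0.578%. The median standard error of the log2 change was 0.12 in the first and 0.46 in the second, and the median change of the called was 1.52-fold and 4.57-fold. With that error a modest change in a scarce RNA was often not detectable at this depth. Length and number of transcripts made less difference. In 4 classes of transcript length between 2.51% and 3.54% were called. Of Trinity genes with 1 transcript 2.83% were called, with 2 transcripts 2.98% and with 3 or more 3.45%.

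**Figure D4:**
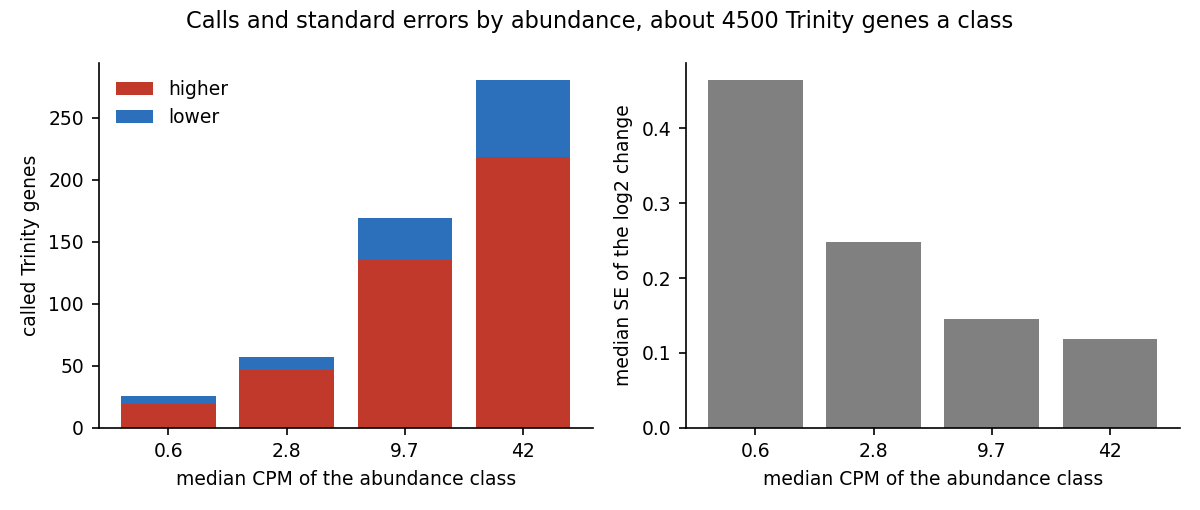
Left, the number of Trinity genes called higher and lower in each of 4 abundance classes. Right, the median standard error of the log2 change in the same classes, which are labelled by their median CPM. Calls rise from 26 to 280 while the standard error falls from 0.46 to 0.12.

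Few Trinity genes appeared or disappeared outright. After rounding, 539 had no count in any control library and some in the exposed group, and 14 of these had a count in all 5 exposed libraries. In 0 of them did all 5 exposed libraries reach 10 counts. In the other direction 266 had no count in any exposed library and some in the control, 4 of them with a count in all 5 controls and 0 with 10 counts in each. Of each set 1 was called, and their fold changes have no lower group to rest on.

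More Trinity genes than transcripts were called, and the calls of both levels overlapped in part. Of 27420 transcripts tested singly, 303 (1.11%) were higher and 82 (0.299%) lower, together 1.4% (edgeR adjusted p under 0.05). They belonged to 353 Trinity genes, of which 326 were also called as genes, all 326 in the same direction. That is 92.4% of the Trinity genes with a called transcript and 61.3% of those called as genes. The sum over a gene includes its called transcript, so the shared direction was largely fixed beforehand. Of the called Trinity genes, 58.7% of the higher and 61.9% of the lower have 1 transcript, where both levels are nearly the same measurement. Another 206 were called only at the level of the Trinity gene. Of these, 114 had more than 1 tested transcript, and in 99 of the 114 every tested transcript lay on the side of the gene. The rest of the 206 had no more than 1 tested transcript. The median standard error of the log2 change was 0.22 for Trinity genes and 0.33 for transcripts. A further 27 were called only through a transcript, with a median log2 change of 0.70 in size for the transcript and 0.25 for the gene. In 21 of the 27 another transcript of the gene lay on the other side of 0. Without exposed replicate 3, 235 transcripts were called, and without control replicate 3, 250.

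The 532 called Trinity genes carried 524 different DN numbers in their IDs, and 8 DN numbers were shared by 2 called ones. Some of these pairs also shared the c number that follows in the ID, and others did not. Of all tested Trinity genes, 21.8% shared a DN number with another tested one. In 5 of the 8 both were higher, in 0 both were lower, and in 3 they went in opposite directions. Rises were 78.8% of all calls.

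The authors' deposited table of the same comparison marks 91 transcripts as up and 22 as down. All 113 have an adjusted p under 0.05 and a fold change of at least 2 in that table, and no other transcript there meets both. Of the 113, which are 0.848% of the 13326 listed, 104 were called here as transcripts and 108 belong to a Trinity gene called here. Of the 487 transcripts (3.65%) with an adjusted p under 0.05 in the authors' deposited table, 388 belong to a Trinity gene called here, 79.7%. Where both list a transcript, the log2 changes differed by a median of 0.022. The authors' deposited table gives the single transcript of TRINITY_DN9575_c0_g2 a log2 change of -2.23, that of TRINITY_DN13160_c0_g1 -2.79, and the most abundant transcript of TRINITY_DN2935_c0_g1 5.85, all 3 marked. For the most abundant transcript of TRINITY_DN12529_c0_g1 it gives 0.78, unmarked. Its adjusted p there is 0.0341, under 0.05, while the edgeR adjusted p here was 0.0548. The 2 values come from unlike sets, 13326 transcripts listed there and 27420 tested here. With only the transcripts listed there, edgeR called 483 here, 335 higher and 148 lower. The authors' 487 divide into 335 higher and 152 lower.

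The difference between the groups was not the only large difference between these libraries. The first principal component of the 10, with 34.4% of the variance, had scores from -39.6 to 5.63 in the control and from -13.7 to 48.4 in the exposed group. Its mean differed at an unadjusted p of 0.0159 (two-sided exact permutation test), which did not pass after adjustment over the 5 components examined (adjusted p = 0.0794). Control replicate 5 and exposed replicate 5 lay within the range of the other group. The median SD of log2 CPM within a group was 0.236 in the control and 0.246 in the exposed group, and 52.3% of Trinity genes had the larger SD in the exposed group.

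**Figure D5:**
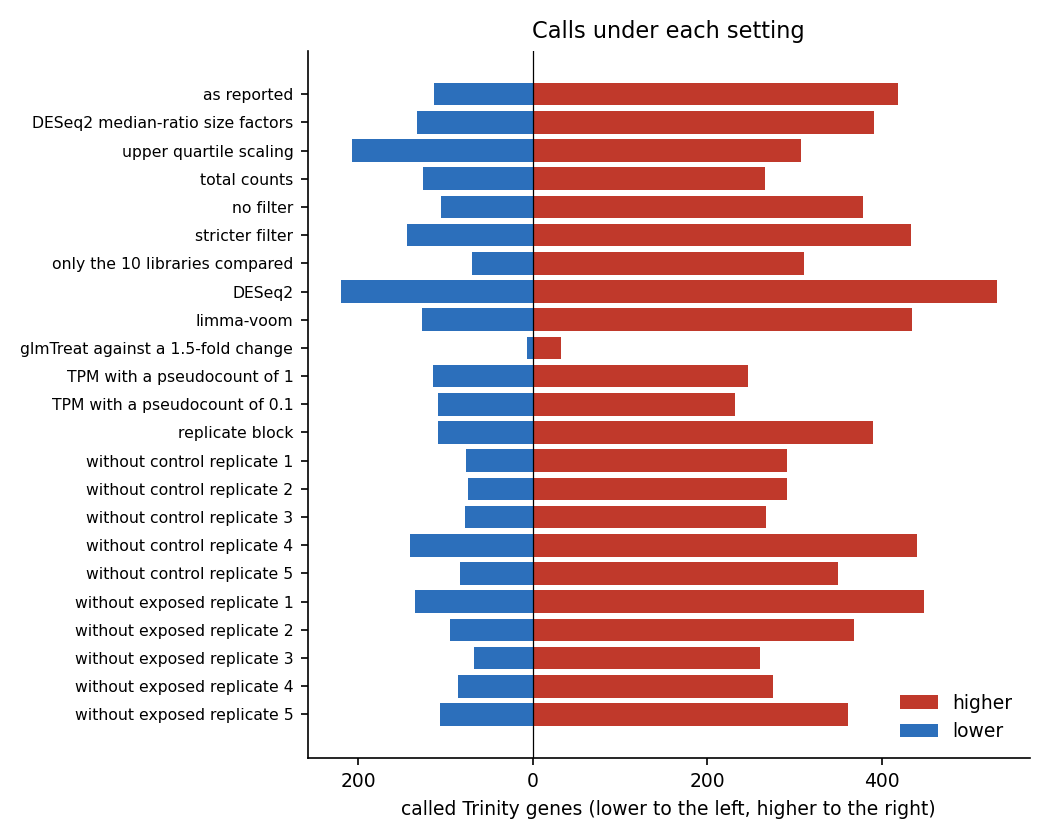
Number of Trinity genes called higher (right) and lower (left) as reported and under each alternative, counts being set out from 0. Rises outnumber falls in each setting shown, and their share is lowest with upper quartile scaling, at 307 against 207.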

How the data were processed

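Libraries were strand-marked and made from poly(A)-selected RNA of whole bodies, per the labels' protocols. The authors deposited, for each library, the estimated counts and the TPM of 34903 transcripts, made after trimming with Trimmomatic 0.38 and quantification with kallisto, per the submitters' processing notes, which also name DESeq2. The assembly used is not given in any source at hand. The authors' deposited table of the comparison holds log2 fold changes, p-values and adjusted p-values, per the file headers.

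Estimated counts were summed per Trinity gene (the ID without its transcript suffix) and rounded to whole numbers, and transcripts were rounded singly. Features were kept by filterByExpr (minimum count 10, minimum total 15), which left at least 99.86% of each library's counts. edgeR 4.0.16 in R 4.3.3 fitted 1 mean per group to all 35 libraries with TMM scaling. Adjusted p-values are Benjamini-Hochberg over all features tested, called under 0.05. Standard errors are |log2 change|/sqrt(F). Alternatives used limma 3.58.1 and DESeq2 1.42.0. The fits were tested on simulated counts. No 2 libraries of a group agreed within sampling noise (chi-square per transcript of at least 26.0). Precision is set by the number of libraries and by 18081325 to 26636831 counts per library.

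Named Trinity genes were picked by the rule stated in the text. The comparison, lists and rule were chosen with earlier results of these data known.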

Additional observations from a re-analysis of the deposited data

Results flagged for a closer look

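In 18 groups of 5 values (the 4 named Trinity genes and 5 library measures in each group), 2 had a library far from the others, where chance gives about 1 in 20. TRINITY_DN9575_c0_g2 stood at 933 CPM in exposed replicate 4 and at 330 to 458 CPM in the other exposed libraries, a gap of 0.787 of the group's range (Dixon's critical value is 0.71). The TMM factor of control replicate 4 was 0.916 against 1.088 to 1.135 in the other controls, a gap of 0.787 of the range.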

How the results depend on the processing

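Of 22 alternatives, 18 left the count of called Trinity genes within 1.5 times of 532. Leaving out 1 library gave 328 to 583. The count was 39 against a 1.5-fold change and 340 from TPM with a pseudocount of 0.1. With only the 10 libraries compared it was 380, of which 322 were among the 532. DESeq2 called 752 and limma-voom 562. For transcripts, 18 of 23 stayed within 1.5 times of 385. Leaving out 1 library gave 235 to 400. The count was 205 with only the 10 libraries compared, 700 with DESeq2 and 37 against a 1.5-fold change. In both levels 0 settings turned the excess of rises. Called in all 10 fits that left out 1 library were 260 of the 532 Trinity genes (209 higher, 51 lower), and in these and the 11 other settings apart from the 1.5-fold test, 189 (155 higher, 34 lower). TRINITY_DN2935_c0_g1, TRINITY_DN13160_c0_g1 and TRINITY_DN9575_c0_g2 passed under all 22 alternatives, with log2 changes of 4.84 to 5.76, -3.07 to -2.41 and -2.52 to -1.99. Their largest edgeR adjusted p-values were 0.00128, 0.0165 and 0.00731, the last 2 with only the 10 libraries compared. TRINITY_DN12529_c0_g1 missed the threshold in 10 of 22, with log2 changes from 0.58 to 0.93 and adjusted p from 0.0125 to 1. The causes were not tested.

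The labels give both groups replicate numbers 1 to 5. With the number as a replicate block, 498 Trinity genes and 340 transcripts were called. The deviations of same-numbered libraries correlated above 0.1 in 1 of 5 pairs. Of the 5 exposed libraries, 1 correlated best with its own number. The labels do not say whether the numbers pair the samples, and 5 correlations cannot settle it.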

Other observations

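The order of the libraries was the same in both named falling Trinity genes, which was noticed in the 10 libraries compared. It was therefore looked for in the 25 libraries of the 5 other groups, as deviations of log2 CPM from the group mean. There TRINITY_DN13160_c0_g1 and TRINITY_DN9575_c0_g2 deviated together (Pearson r = 0.770, permutation p = 0.00073, adjusted p = 0.00438; Spearman rho = 0.666, permutation p = 0.00091, adjusted p = 0.00546; two-sided, 100000 permutations within groups, n = 25, 6 pairs of named Trinity genes). Without the 2 libraries farthest from the median of TRINITY_DN13160_c0_g1 r was 0.576. In the other 5 pairs Pearson r lay between -0.187 and 0.418, and none passed (smallest adjusted p = 0.170). The largest of these was between the rising TRINITY_DN2935_c0_g1 and TRINITY_DN12529_c0_g1.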
